A study of Mus musculus with 9 samples.

Results

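Interferon-stimulated genes are the genes that cells switch on when interferon binds its receptors, and they encode transcription factors, virus sensors and antiviral effectors. The list examined here names 54 mouse genes by their symbols, and 53 of them have a row among the 20618 genes of the deposited tables; Mx1 was not analysed here. Primary CD8+ T cells of wild-type mice were kept for 24 h in medium with 2 mM glucose, with 2 mM inosine, or with 2 mM inosine and hypoxanthine, and 3 RNA-seq libraries were made for each medium. Inosine is a purine nucleoside whose ribose T cells can burn in place of glucose, and hypoxanthine is its purine base. All media held 10% dialyzed serum, and live cells, about 80% of the total, were sorted before RNA was taken. The hypoxanthine dose is left out because its unit in the labels is incomplete. The labels give no strain, age or activation of the cells and do not state that libraries stem from separate mice or cultures, so p-values measure only the spread between these libraries. Libraries are called 1, 2 and 3 within a medium after the number in their names.

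Interferons signal through a short chain. Type I interferons bind the Ifnar1 and Ifnar2 receptor chains, the kinases Jak1 and Tyk2 start the signal, and a complex that holds Stat2 and Irf9 binds the interferon-stimulated response element in the promoters of their targets. Interferon gamma, which CD8+ T cells secrete themselves, binds Ifngr1 and Ifngr2, acts through Jak1 and Jak2, and works at gamma-activated sites. Irf1 and Irf7, both induced by interferon, extend the response.

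The promoters of the list carry the response element more often than promoters at large. RefSeq promoters on GRCm38.p6 were matched for 43 of the 53 genes, and the response element, taken as GAAA, any 2 bases and GAAA again, was sought on both strands (so also as TTTC, any 2 bases and TTTC) in the 250 bases before the gene start. It stood in 18 of the 43 (41.9%), against 3.46% of 27025 mouse genes with a promoter in the same table. The gamma-activated letters TTCNNNGAA, which read alike on both strands, stood in 10 of the 43 (23.3%) against 8.13%. Both were found in 5 and neither in 20, the 2 motifs being searched separately so that a stretch could count for both. The 26 copies of the response element lay at a median of 69 bases before the start, and 7 genes held more than 1. The 6 promoters below are those of the genes with the element that had the largest rise and the largest fall with hypoxanthine, then those of the highest expression; each runs 5′ to 3′ on the gene's strand, and capitals mark the response element.
Isg15 (chr4:156200819-156201068, minus strand): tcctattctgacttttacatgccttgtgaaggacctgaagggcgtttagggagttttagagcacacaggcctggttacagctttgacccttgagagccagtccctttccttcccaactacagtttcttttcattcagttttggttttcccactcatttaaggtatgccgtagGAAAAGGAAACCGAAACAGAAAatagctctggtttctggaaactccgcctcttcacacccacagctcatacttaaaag
Ifitm2 (chr7:140955962-140956211, minus strand): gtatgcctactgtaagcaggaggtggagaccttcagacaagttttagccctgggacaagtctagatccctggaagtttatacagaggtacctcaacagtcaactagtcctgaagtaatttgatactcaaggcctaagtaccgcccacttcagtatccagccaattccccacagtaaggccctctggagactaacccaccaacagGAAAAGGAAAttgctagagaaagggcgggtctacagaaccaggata
Bst2 (chr8:71537473-71537722, minus strand): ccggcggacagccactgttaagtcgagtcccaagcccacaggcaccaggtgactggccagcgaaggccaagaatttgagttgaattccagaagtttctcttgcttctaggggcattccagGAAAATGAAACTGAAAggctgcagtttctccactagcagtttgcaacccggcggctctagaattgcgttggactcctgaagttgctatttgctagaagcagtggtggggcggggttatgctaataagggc
Igtp (chr11:58199306-58199555, plus strand): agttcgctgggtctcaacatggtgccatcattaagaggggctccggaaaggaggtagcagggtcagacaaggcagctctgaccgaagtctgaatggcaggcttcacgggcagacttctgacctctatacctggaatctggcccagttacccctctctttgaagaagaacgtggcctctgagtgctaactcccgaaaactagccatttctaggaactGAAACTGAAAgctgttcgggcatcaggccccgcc
Gbp2 (chr3:142620413-142620662, plus strand): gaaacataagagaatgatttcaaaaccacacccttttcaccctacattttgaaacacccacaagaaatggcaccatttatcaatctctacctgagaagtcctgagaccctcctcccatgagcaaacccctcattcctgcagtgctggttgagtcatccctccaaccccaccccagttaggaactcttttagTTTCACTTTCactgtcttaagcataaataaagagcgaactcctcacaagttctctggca
Irgm1 (chr11:48871421-48871670, minus strand): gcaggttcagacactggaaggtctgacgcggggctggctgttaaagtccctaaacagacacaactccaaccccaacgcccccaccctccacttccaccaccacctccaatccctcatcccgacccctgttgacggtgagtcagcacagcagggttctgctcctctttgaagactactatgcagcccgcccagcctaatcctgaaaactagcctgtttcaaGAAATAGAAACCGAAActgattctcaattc
In Isg15 3 overlapping copies form a single run, and in Bst2 and Irgm1 2 copies overlap. The match is a description of the letters and not of a bound factor. Of the 18 genes with the element 3 rose and 1 fell with hypoxanthine added to inosine (median difference 0.32 on the log2 scale), and of the 25 without it 9 rose and 1 fell (median 0.51), where 21.3% of all genes were called, 11.7% higher and 9.59% lower. The strong risers Slfn2, Sp100 and Xaf1 held none in this window, and Ifi27l2a had no entry.

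Expression is given as FPKM, fragments per kilobase of gene scaled to the library's total, so levels can be compared between genes. Averaged over the 9 libraries the members ran from 0.0676 FPKM for Ifi44 to 289 FPKM for Ifitm2. Of the 53, 42 averaged at least 1 FPKM, and the 11 under it were Oas1a, Oas2, Oasl1, Oasl2, Ifit1, Ifit3, Rsad2, Cmpk2, Rtp4, Slfn5 and Ifi44. Whole reads recovered from the tables came to 30795506 to 50009114 a library. The low genes rested on few of them: Ifi44 had 0 reads in glucose library 1 and inosine library 1, where a count of 0 allows up to 3 (a limit for counting error only). The identity of the cells was checked on marker genes. All 6 CD8 T cell markers were present, with a summed level of 633 to 681 FPKM in glucose, 569 to 771 in inosine and 1088 to 1174 with hypoxanthine. Of the B cell, neutrophil and erythroid markers in the tables none passed 1 FPKM in any library; Cd4, Foxp3, Lyz2, Csf1r and Adgre1 stayed under 0.1 FPKM. Markers of other cells that did pass 1 FPKM were Zbtb7b, Cd68, Zbtb46, Xcr1, Klre1, Epcam and Pecam1.

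Within glucose and within inosine the 3 libraries differed widely in their interferon-stimulated genes, which bears on each comparison that follows. In both media library 1 held the lowest level, library 3 the middle and library 2 the highest for 45 of the 53 members (84.9%), an order that 6.22% of all genes and 9.63% of the 9947 genes of at least 1 FPKM showed. The 8 exceptions were Oas2, Rsad2, Trim25, Dtx3l, Ifitm1, Ifitm2, Slfn2 and Slfn5. The 9 interferon-inducible GTPases, which attack the vacuoles of intracellular pathogens, all followed it. Among them Gbp2 read 14.3, 41.3 and 30.9 FPKM in glucose libraries 1, 2 and 3, 13.2, 49.4 and 33.3 in inosine and 71.2, 77.4 and 72.2 with hypoxanthine. Library 1 of glucose and of inosine thus held far less Gbp2 than library 2, while the libraries with hypoxanthine lay close together and above all others.

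The same contrast held across the list. The highest library exceeded the lowest by a median of 2.17-fold in glucose (52 members; Ifi44 was listed at 0 in 1 library) and 1.92-fold in inosine, but 1.12-fold with hypoxanthine. Among the 42 members of at least 1 FPKM the SD of log2(FPKM + 1) over the 3 libraries had a median of 0.4 (glucose), 0.34 (inosine) and 0.074 (hypoxanthine), against 0.094, 0.13 and 0.087 for all genes of that level. The SD was smallest with hypoxanthine for 47 of the 53 members (88.7%), as it was for 36% of all genes. At 1 FPKM or more these shares were 92.9% of the 42 members and 42.1% of the 9947 genes. In the hypoxanthine libraries 17 members showed the order 1, 3, 2, as did 3120 of all 20618 genes. The members thus spread more widely than other genes of their level in glucose and inosine, and about as widely with hypoxanthine.

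**Figure D1:**
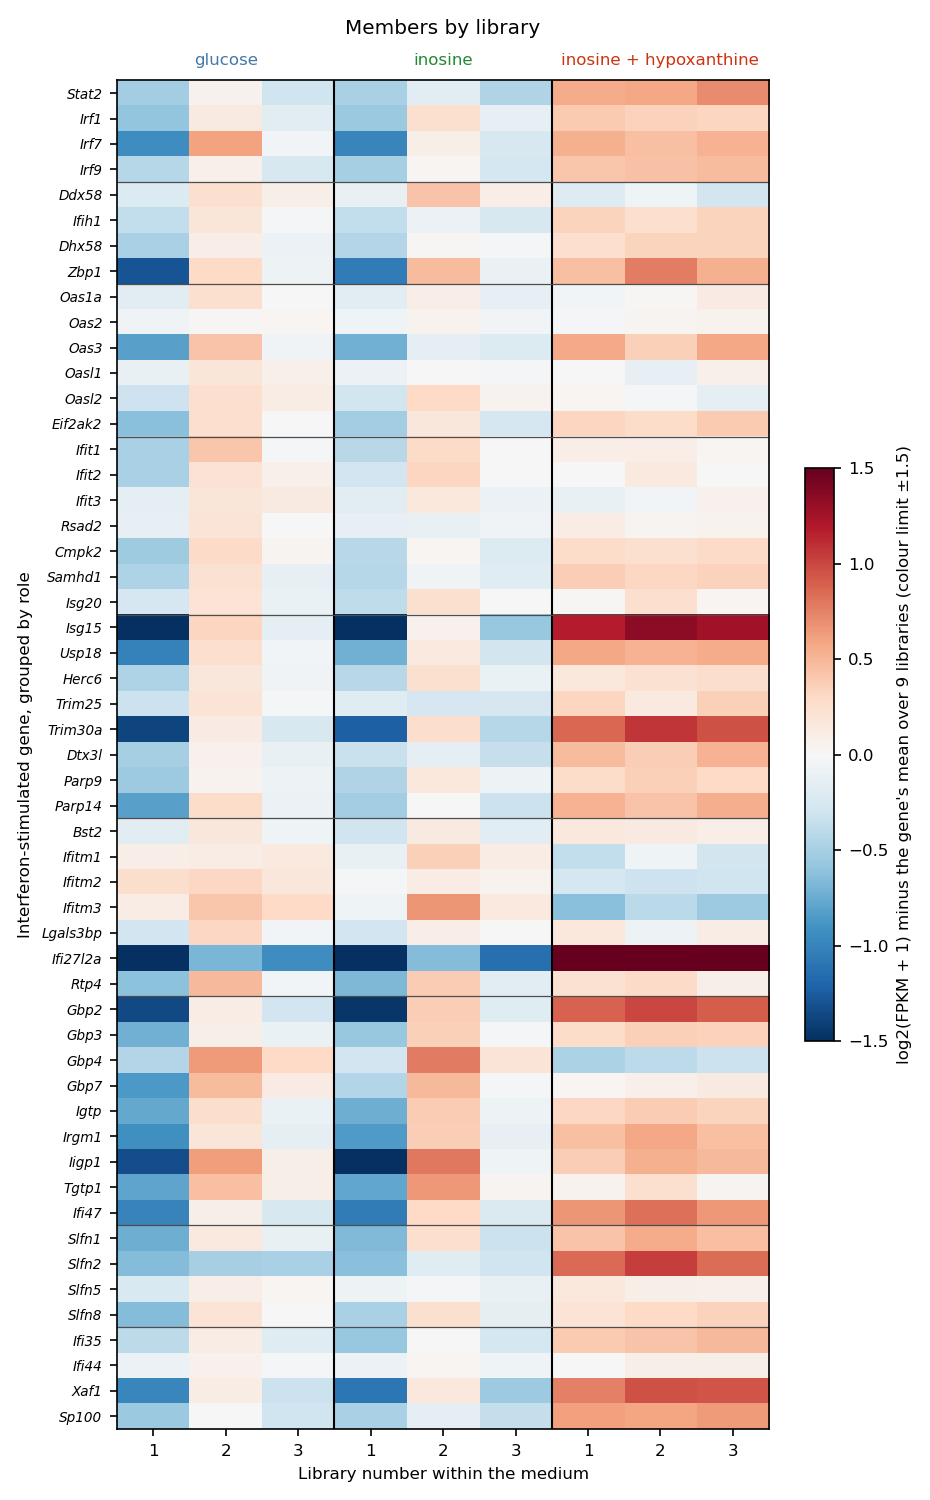
Level of each of the 53 members in each of the 9 libraries, as log2(FPKM + 1) minus the gene's mean over all libraries (red above, blue below, colour limited at ±1.5), with genes grouped by role and media separated by vertical lines. Library 1 of glucose and of inosine is blue for most members, and the 3 hypoxanthine libraries are alike.

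**Figure D2:**
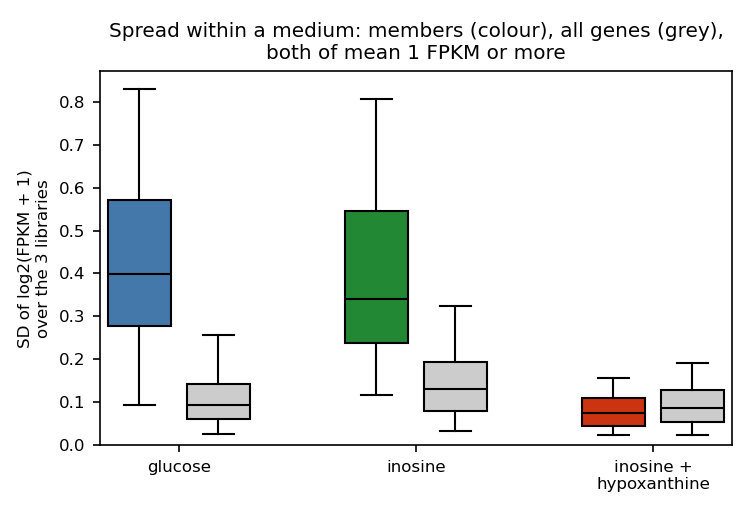
SD of log2(FPKM + 1) over the 3 libraries of a medium for the 42 members (coloured) and the 9947 genes (grey) that averaged at least 1 FPKM. Boxes span the quartiles around the median and whiskers the 5th to 95th percentile; the coloured median falls from 0.4 in glucose and 0.34 in inosine to 0.074 with hypoxanthine, while the grey medians lie between 0.087 and 0.13.

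Other measures of the same libraries were set beside this order. Recovered reads were 30795506, 34611818 and 50009114 in glucose libraries 1, 2 and 3 and 35561923, 42488959 and 37384563 in inosine, so library 1 was the shallowest of both media and depth followed the order 1, 3, 2 in inosine only. Mitochondrial genes took 4.21%, 4.03% and 4.7% of FPKM in glucose and 4.47%, 6.5% and 4.82% in inosine. Of the 6 CD8 T cell markers, 2 followed the order in both media, Cd8a (73.8, 82.6 and 77.2 FPKM in glucose; 69.7, 91.9 and 83 in inosine) and Cd3g. The part of depth and of cell content in the order was not tested. In bulk RNA, fewer cells with a response and less RNA per cell cannot be told apart.

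The gene for interferon gamma itself ran the other way. Ifng read 259, 107 and 186 FPKM in glucose libraries 1, 2 and 3, 255, 159 and 200 in inosine and 243, 246 and 235 with hypoxanthine. The libraries with the most interferon-stimulated transcript in glucose and inosine therefore held the least Ifng, and the hypoxanthine libraries were again close together. Type I and type III interferon genes were nearly silent, with no value over 0.174 FPKM for Ifna1, Ifna4, Ifna5, Ifna13, Ifnab, Ifne, Ifnk, Ifnz and Ifnl2; Ifnb1 was not analysed here.

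The first comparison asked what exchanging glucose for inosine does to these genes. None of the 53 members was called by limma at a Benjamini-Hochberg adjusted p under 0.05 over all 20618 genes, the threshold used throughout, where 2 of all genes were (0.0097%), 1 higher (0.00485%) and 1 lower (0.00485%). Only Ifitm2 had an unadjusted p under 0.05 and libraries that did not overlap between the media; without overlap 2.83% of all genes were lower and 2.23% higher in inosine. Ifitm2 encodes a membrane protein that hinders virus entry and read 342, 353 and 320 FPKM in glucose and 279, 309 and 297 in inosine, a difference of -0.20 ± 0.07 (SE) with an adjusted p of 1. The median difference of the members was -0.03 on the log2 scale, with 19 above and 34 below 0, and ranged from -0.26 (Irf7) to 0.17. In the authors' deposited table no member had an adjusted p under 0.05 either, where 0.00506% of its genes were lower and none higher. The median rested on single libraries, moving between -0.23 and 0.16 when 1 of the 9 was left out.

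Inosine and glucose libraries of the same number were close to each other. The median difference over the members was 0.04 between the libraries numbered 1, -0.02 between those numbered 2 and -0.09 between those numbered 3, and 53, 51 and 53 of the 53 members lay within 0.5 on the log2 scale. Isg15, a ubiquitin-like modifier among the most inducible genes of the class, shows it with 1.32 and 2.04 FPKM in libraries 1, 10 and 8.25 in libraries 2 and 7.05 and 4.94 in libraries 3. The gap between numbers was larger than the gap between media. This scale understates the change of the 11 members under 1 FPKM, and the share of all genes within 0.5 was not computed. Whether a number marks a shared mouse or day is not given in the labels.

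The second comparison asked what hypoxanthine adds when cells already have inosine. Of the 53 members 13 rose, 2 fell and 38 were not called (28.3% called), where 21.3% of all genes were called, 11.7% higher and 9.59% lower. Those shares count genes under 1 FPKM too, while 42 of the 53 members averaged at least 1 FPKM. The 28.3% and the 21.3% therefore do not compare genes of like level. In a fit of only the 9947 genes of that level, 2074 were higher and 1858 lower. In that fit Oas3, Dhx58 and Parp14 were also called higher and Ifitm1 lower. The median difference of the members was 0.47 on the log2 scale against 0.00 over all genes, and 46 members were higher and 7 lower. All 3 hypoxanthine libraries exceeded all 3 inosine libraries for 28 members and lay under them for 3, shares of all genes being 18.7% and 15.6%. By the adjusted p of the authors' deposited table, 24 members were higher and 5 lower, with 11.1% and 11.6% of its genes. The rising members were Stat2, Irf9, Ifih1, Samhd1, Isg15, Trim25, Trim30a, Dtx3l, Ifi27l2a, Slfn2, Ifi35, Xaf1 and Sp100, and the falling ones Ifitm2 and Ifitm3. The count of rising members was 5 without hypoxanthine library 3, 7 without inosine library 3, 8 without hypoxanthine library 1 and 21 without glucose library 1, and the falling count was 1 without hypoxanthine library 1 or 3.

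**Figure D3:**
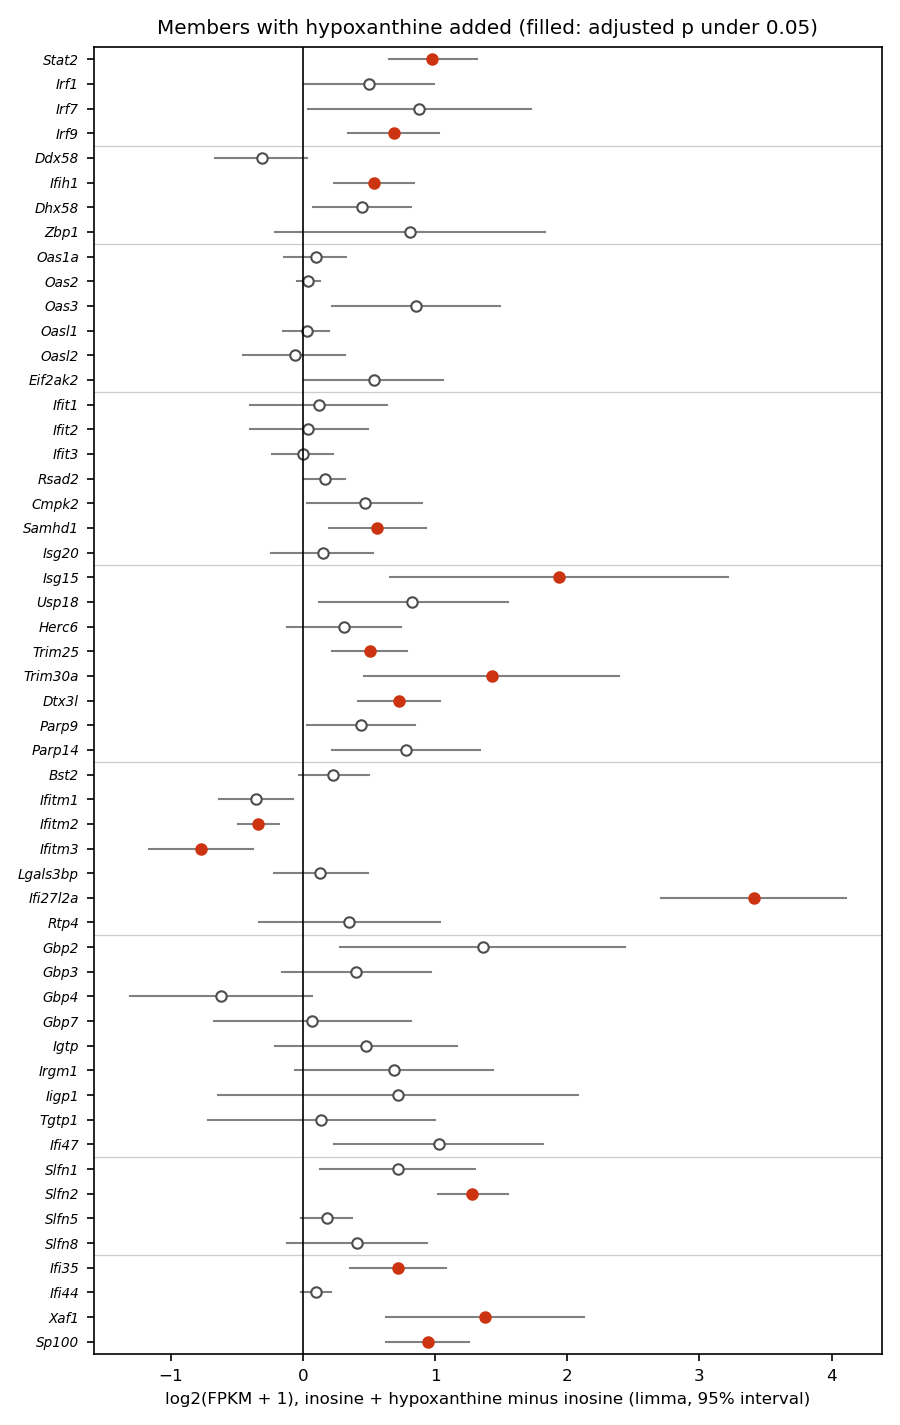
Difference in log2(FPKM + 1) between inosine with hypoxanthine and inosine for the 53 members, grouped by role, with the 95% interval from limma; filled circles have an adjusted p under 0.05. Ifi27l2a stands at 3.41, Ifitm3 at -0.77, and the widest intervals belong to genes with a large spread between glucose and between inosine libraries.

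The distance to the hypoxanthine libraries depended on which library it was measured from. The mean of the hypoxanthine libraries exceeded inosine library 1 by a median of 0.77 over the members, library 2 by 0.13 and library 3 by 0.43, and glucose libraries 1, 2 and 3 by 0.86, 0.08 and 0.34. Over genes of at least 1 FPKM the same medians lay between -0.04 and 0.03. Library 2 of either medium thus came near the hypoxanthine level for much of the list: 28 of 53 members were under every hypoxanthine library in inosine library 2 and 25 in glucose library 2, where 32% and 28.6% of all genes were, and 15 and 19 members were above every hypoxanthine library. In library 1 of inosine and of glucose 47 members were under every hypoxanthine library, where 29.5% and 33.4% of all genes were. Still, 22 members (41.5%) stood above all 6 libraries of both other media, where 14.9% of all genes did, and Ifitm2 and Ifitm3 (3.77%, all genes 12.3%) below all 6. These shares of all genes count genes under 1 FPKM too. The 22 include 12 of the 13 rising members, without Trim25, and 10 that were not called, which are Irf1, Dhx58, Eif2ak2, Usp18, Parp9, Parp14, Gbp2, Irgm1, Ifi47 and Slfn1.

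Marker genes moved with the medium as well. The summed CD8 T cell markers were 1088 to 1174 FPKM with hypoxanthine and 569 to 771 in inosine, and the dendritic cell list summed to 1.37 to 2.55 against 0.302 to 0.629 (0.298 to 2.85 in glucose), of which Zbtb46 gave 1.54, 1.37 and 1.57. The natural killer cell list summed to 1.6 to 2.24 with hypoxanthine, 2.17 to 2.94 in inosine and 2.21 to 2.97 in glucose. Not every T cell marker was higher: Cd247 read 32.3, 33.6 and 31.2 FPKM with hypoxanthine, 25.5, 49.4 and 51.6 in inosine and 41.3, 44.5 and 44 in glucose. The stroma and epithelium list summed to 6.16 to 6.65 against 4.11 to 5.03, through Epcam and Pecam1, with Col1a1 and Col3a1 under 0.05 FPKM. Their part in the members' differences was not tested.

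Among the 4 transcription factors of the list 2 rose and none fell. Stat2, which joins Irf9 in the complex of the type I response, read 4.04, 6.56 and 4.9 FPKM in glucose, 4.16, 5.47 and 4.28 in inosine and 9.67, 9.84 and 10.8 with hypoxanthine. The hypoxanthine libraries lay apart from the other 6, and Stat2 rose by 0.98 ± 0.15 (SE) over inosine, a 2.18-fold ratio of means (adjusted p = 0.00208). Irf9, the DNA-binding partner of that complex, read 8.26, 12.2 and 9.54 FPKM in glucose, 7.85, 11.7 and 9.41 in inosine and 15.7, 15.9 and 16.3 with hypoxanthine. It rose by 0.69 ± 0.15 (adjusted p = 0.0131; 0.0515 without hypoxanthine library 3). Irf1, induced by interferon gamma above all, read 28.7, 48 and 38.6 FPKM in glucose, 29.3, 51.6 and 40.1 in inosine and 57.5, 55.7 and 54.8 with hypoxanthine. Its libraries did not overlap either, but the difference of 0.50 ± 0.22 was not called (adjusted p = 0.147, and 0.049 without inosine library 2). The spread was wide in both glucose and inosine, and the fit pools the spread of all 9 libraries. Irf7, the amplifier of type I interferon production, differed by 0.88 ± 0.37 (adjusted p = 0.137).

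Of the 4 nucleic acid sensors only Ifih1 was called. Ifih1 encodes MDA5, a sensor of long double-stranded RNA, and read 0.843, 1.7 and 1.34 FPKM in glucose, 0.84, 1.23 and 1.01 in inosine and 2, 1.83 and 2 with hypoxanthine. It rose by 0.54 ± 0.13 (adjusted p = 0.0195) from a low level, and the call was lost without inosine library 1 or 3 or hypoxanthine library 1 or 3 (adjusted p 0.0602 to 0.0696). Zbp1, a sensor of Z-form nucleic acid, read 5.31, 18 and 13.7 FPKM in glucose, 6.51, 20.5 and 13.4 in inosine and 20.1, 25.4 and 21.4 with hypoxanthine. Inosine library 2 overlapped the hypoxanthine libraries, and the difference of 0.81 ± 0.45 was not called (adjusted p = 0.262). Ddx58, which encodes RIG-I, went the other way without being called, at 5.3, 8.15 and 6.29 FPKM in inosine and 4.97, 5.5 and 4.62 with hypoxanthine.

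No member of the OAS family, whose active enzymes make the second messenger that activates RNase L, was called. Eif2ak2, the RNA-activated kinase PKR, was not called either. Oas3, at 6.02, 15.5 and 10.9 FPKM in glucose, 6.49, 10.1 and 9.69 in inosine and 17.2, 14.8 and 17.4 with hypoxanthine, was the only OAS gene over 1 FPKM. Its libraries did not overlap between inosine and hypoxanthine, and the difference was 0.86 ± 0.28 (adjusted p = 0.061). That value sat close to the threshold, and Oas3 was called in 6 of the 18 alternative analyses, with an adjusted p from 0.0139 to 0.378. Oas1a, Oas2, Oasl1 and Oasl2 stayed under 0.6 FPKM in every library, and their differences lay between -0.06 and 0.10.

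Of the 7 antiviral effectors only Samhd1, which cleaves deoxynucleotides and so starves viral DNA synthesis, was called. It read 21.7, 35.6 and 27.7 FPKM in glucose, 22.3, 29.1 and 26.7 in inosine and 39.5, 37.9 and 38.8 with hypoxanthine. Every hypoxanthine library lay above the other 6, and the rise was 0.56 ± 0.16 (adjusted p = 0.0375). The call was lost in 8 of the 18 alternatives, among them leaving out glucose library 3, inosine library 1 or 3 or any hypoxanthine library. Isg20, an interferon-induced exonuclease, read 9.98, 14.1 and 11.2 FPKM in glucose, 9.01, 14.5 and 12 in inosine and 12.2, 14.6 and 12.3 with hypoxanthine. The groups overlapped and the difference was 0.15 ± 0.17 (adjusted p = 0.604; -0.02 without inosine library 1). The classical markers Ifit1, Ifit2 and Ifit3, which bind foreign RNA, were low, at no more than 2.52 FPKM in any library, and differed by 0.12, 0.04 and -0.00.

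The group around ISG15, ubiquitin ligases and ADP-ribosylation gave the most calls by number, 4 of 8 (50%). By share the group of Sp100, Xaf1, Ifi35 and Ifi44 came first, with 3 of 4 called (75%), where 21.3% of all genes were called. Isg15 read 19, 21.3 and 20.2 FPKM with hypoxanthine against 2.04, 8.25 and 4.94 in inosine, a 3.97-fold ratio of means and a rise of 1.94 ± 0.56 (adjusted p = 0.0393). Its lowest hypoxanthine library exceeded its highest in any other medium, but the call was lost in 9 of the 18 alternatives, among them leaving out glucose library 3, inosine library 1 or 3 or any hypoxanthine library (adjusted p 0.0592 to 0.115). Trim30a, of the TRIM ubiquitin ligase family, read 4.7, 15.2 and 11.6 FPKM in glucose, 5.38, 16.8 and 10 in inosine and 26, 30.3 and 27.7 with hypoxanthine. It too stood clear of all 6 other libraries, with a rise of 1.43 ± 0.43 (adjusted p = 0.0437) that was lost when the same libraries were left out. Dtx3l, a ubiquitin ligase that works as a dimer with Parp9, read 7.28, 11.2 and 9.8 FPKM in glucose, 8.31, 9.62 and 8.21 in inosine and 15.3, 14.1 and 15.8 with hypoxanthine. It rose by 0.73 ± 0.13 (adjusted p = 0.00562). Trim25, the ligase that activates RIG-I, rose by 0.51 ± 0.12 (adjusted p = 0.02; lost in 5 of the 18 alternatives). Parp9 read 11.7, 18.2 and 16.6 FPKM in glucose, 12.5, 19.7 and 16.6 in inosine and 21.4, 22.8 and 21.8 with hypoxanthine and was not called (0.44 ± 0.18, adjusted p = 0.129). By RefSeq gene positions on mm10, Dtx3l (chromosome 16, 35926515 to 35939027) and Parp9 (35938470 to 35972621) overlap, so without strand their reads cannot be fully told apart.

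**Figure D4:**
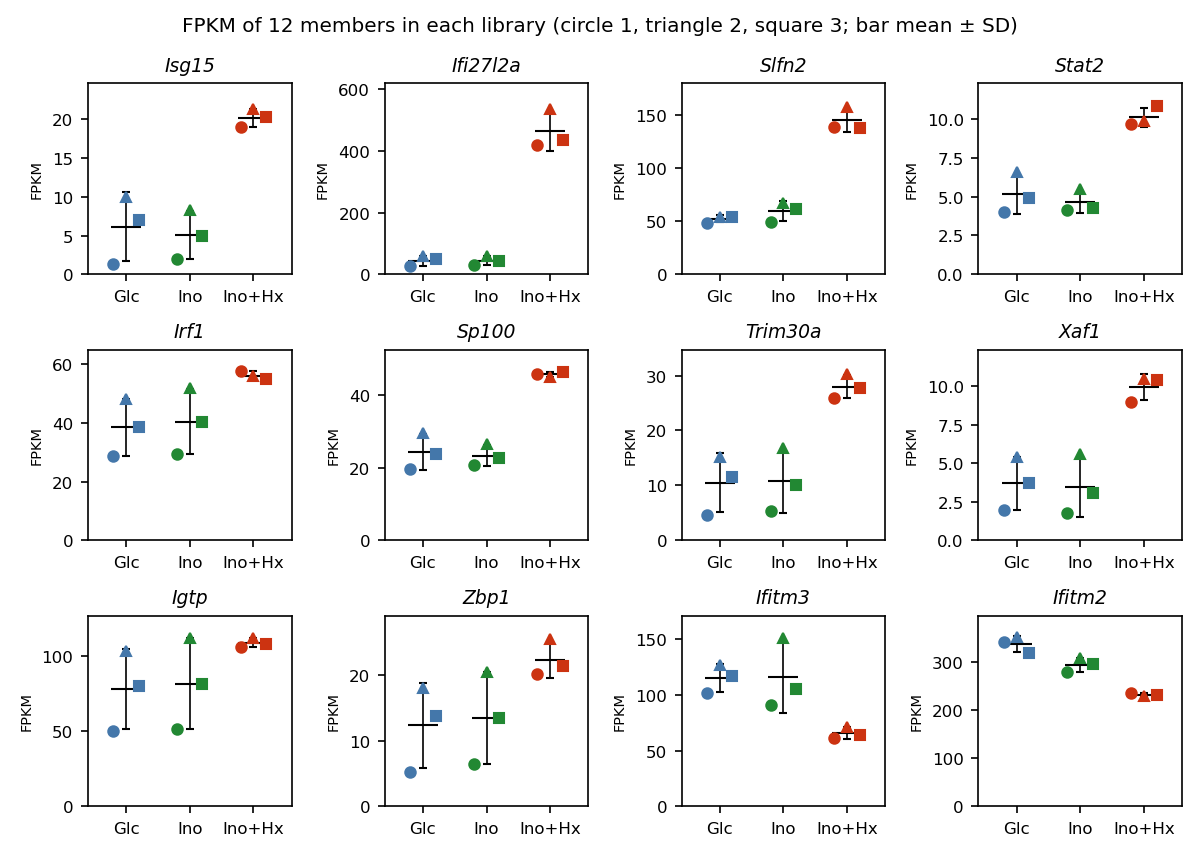
FPKM of 12 members in each library of glucose (Glc), inosine (Ino) and inosine with hypoxanthine (Ino+Hx); circles, triangles and squares are libraries 1, 2 and 3, and bars give the mean ± SD. For Isg15, Trim30a, Xaf1, Zbp1 and Igtp the circle is lowest and the triangle highest in glucose and inosine, and Ifitm2 and Ifitm3 are the panels where the hypoxanthine libraries are lowest.

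Membrane and secreted members held both the largest rise and both falls. Ifi27l2a, of the Ifi27 family of small interferon-induced proteins, read 26.8, 58.2 and 49.2 FPKM in glucose, 29.9, 59.9 and 42.6 in inosine and 418, 536 and 435 with hypoxanthine. The groups were far apart, at a 10.5-fold ratio of means, and the rise of 3.41 ± 0.31 over inosine (adjusted p = 0.000178) held in 17 of the 18 alternatives. Ifitm3, a barrier to virus entry at endosomes, read 102, 127 and 117 FPKM in glucose, 90.6, 151 and 105 in inosine and 61, 71.4 and 64.4 with hypoxanthine. It fell by 0.77 ± 0.17 (adjusted p = 0.0131), a 1.76-fold lower mean; the adjusted p was 0.0512 without hypoxanthine library 1 and 0.0508 without library 3. Ifitm2, in the same cluster on chromosome 7, read 237, 230 and 232 FPKM with hypoxanthine, under every other library, and fell by 0.34 ± 0.07 (adjusted p = 0.00823). Ifitm1 read 247, 248 and 254 FPKM in glucose, 213, 295 and 248 in inosine and 178, 220 and 190 with hypoxanthine. With hypoxanthine it overlapped inosine but lay under every glucose library. Its difference from inosine was -0.35 ± 0.12 and was not called (adjusted p = 0.076, and 0.0226 without inosine library 1). The 3 Ifitm genes are close copies, and reads may be shared between them. Bst2, which tethers budding virus to the cell surface, read 81.7, 110 and 90 FPKM in inosine and 112, 110 and 108 with hypoxanthine and was not called.

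None of the 9 interferon-inducible GTPases was called, although several had large mean differences. Igtp, the one of highest level, read 50, 103 and 79.9 FPKM in glucose, 51.3, 112 and 81 in inosine and 106, 112 and 108 with hypoxanthine. Inosine library 2 reached the hypoxanthine level and library 1 lay far below it, and the difference of 0.48 ± 0.30 had an adjusted p of 0.327. Gbp2 differed by 1.36 ± 0.47 (adjusted p = 0.0762) and Ifi47 by 1.03 ± 0.35 (adjusted p = 0.0673), and neither overlapped between inosine and hypoxanthine. Gbp2 was called in 2 and Ifi47 in 4 of the 18 alternatives. Gbp4 lay lower with hypoxanthine, at 21.9, 23.3 and 24.5 FPKM against 25.1, 53.7 and 35.4 in inosine (-0.62 ± 0.30, adjusted p = 0.198). Some of these genes have similar copies in the genome, which can make their single values less certain. The sharing of reads between them was not tested.

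In the Schlafen family, regulators of T cell quiescence and of RNA cleavage that sit side by side on chromosome 11, 1 of 4 was called. Slfn2, which keeps T cells quiescent, read 48.5, 53.9 and 54.4 FPKM in glucose, 49.2, 67.3 and 61.8 in inosine and 139, 158 and 138 with hypoxanthine. The spread within each medium was small beside the gap, and the rise was 1.28 ± 0.12 (adjusted p = 0.000187), a 2.44-fold ratio of means. Slfn2 was also outside the library order of the list in glucose, where library 3 was highest. Slfn1 read 9.03, 17.4 and 14.4 FPKM in glucose, 9.51, 18.9 and 12.3 in inosine and 21.3, 23.5 and 21.7 with hypoxanthine (0.72 ± 0.26, adjusted p = 0.0853), with no overlap; it was called in 4 of the 18 alternatives.

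Of the 4 remaining members 3 rose. Sp100, a scaffold of PML nuclear bodies, read 19.7, 29.4 and 23.7 FPKM in glucose, 20.7, 26.6 and 22.7 in inosine and 45.8, 45 and 46.3 with hypoxanthine. Its hypoxanthine libraries were nearly equal and well above the rest, and it rose by 0.95 ± 0.14 (adjusted p = 0.00177). Xaf1, a pro-apoptotic partner of XIAP, read 1.99, 5.39 and 3.73 FPKM in glucose, 1.78, 5.61 and 3.05 in inosine and 9.01, 10.5 and 10.4 with hypoxanthine, and rose by 1.38 ± 0.33 (adjusted p = 0.0185). The Xaf1 call was lost in 5 of the 18 alternatives, among them without inosine library 3 or hypoxanthine library 2 or 3. Ifi35, an interferon-induced leucine zipper protein, read 21.2, 30.5 and 24.6 FPKM in glucose, 18.6, 28.1 and 23.2 in inosine and 37.1, 38.2 and 39.9 with hypoxanthine, and rose by 0.72 ± 0.16 (adjusted p = 0.0127; 0.0526 without hypoxanthine library 3). Ifi44 was close to silent, at 0, 0.119 and 0.0556 FPKM in glucose, 0, 0.0879 and 0.0185 in inosine and 0.0622, 0.13 and 0.136 with hypoxanthine, and was not called (adjusted p = 0.184).

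The third comparison set the same hypoxanthine libraries against glucose; since both comparisons share them, neither supports the other. Of the 53 members 10 rose and 2 fell (22.6% called), where 20.3% of all genes were called, 10.8% higher and 9.55% lower, and the median difference was 0.46. The shares of all genes count genes under 1 FPKM too, while 42 of the 53 members averaged at least 1 FPKM. In a fit of only the 9947 genes of at least 1 FPKM, 1873 were higher and 1959 lower. No overlap was seen for 25 higher and 3 lower members, against 19.8% and 17.8% of all genes. By the adjusted p of the authors' deposited table, 20 members were higher and 3 lower, where 12.7% and 13.8% of its genes were. Ifi27l2a rose by 3.41 ± 0.31 (adjusted p = 0.000187), Slfn2 by 1.45 ± 0.12 (adjusted p = 0.000108) and Isg15 by 1.84 ± 0.56 (adjusted p = 0.0499). The other risers were Stat2, Irf9, Trim30a, Dtx3l, Ifi35, Xaf1 and Sp100. Ifitm2 fell by 0.54 ± 0.07 (adjusted p = 0.000906) and Ifitm3 by 0.80 ± 0.17 (adjusted p = 0.0113). The rising count was 5 without glucose library 1, glucose library 3 or any 1 of the hypoxanthine libraries and 17 without glucose library 2. Of the 18 alternatives, Isg15 lost its call in 12, Trim30a in 9, Irf9, Ifi35 and Xaf1 in 7 each, Stat2, Dtx3l and Ifitm3 in 2 each, Ifi27l2a, Sp100 and Ifitm2 in 1 each and Slfn2 in none.

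The chain above these genes was followed on a second list of 76 interferon pathway genes, 63 of them in the tables. None was called between inosine and glucose. With hypoxanthine added to inosine 18 rose, 3 fell and 42 were not called (33.3% called). Of all genes 21.3% were called, 11.7% higher and 9.59% lower, and these shares count genes under 1 FPKM too. In the fit of only the 9947 genes of at least 1 FPKM, 2074 were higher and 1858 lower. The same shares stand beside the counts by group that follow. The median difference of the pathway genes was 0.08. Receptors gave 3 calls of 6. Ifnar1, the signalling chain of the type I receptor, read 8.77, 9.11 and 8.86 FPKM in glucose, 9.41, 8.56 and 8.5 in inosine and 14.6, 13.7 and 15.3 with hypoxanthine. The glucose and inosine libraries were alike, without the order of the members, and Ifnar1 rose by 0.66 ± 0.07 (adjusted p = 0.000293). Ifnar2 read 10.8, 10.3 and 9.97 FPKM in glucose, 8.25, 11 and 9.41 in inosine and 10.9, 10.4 and 9.54 with hypoxanthine, and was not called (adjusted p = 0.529). Ifngr1, the ligand-binding chain for interferon gamma, was level in all media, at 87.1, 88.3 and 87.1 FPKM in glucose, 84.6, 96.5 and 92.9 in inosine and 90.1, 94.2 and 91.6 with hypoxanthine (difference 0.01, 95% interval -0.14 to 0.16). Ifngr2, its low partner, read 0.778, 1.21 and 0.99 FPKM in glucose, 0.93, 1.02 and 0.929 in inosine and 1.29, 1.43 and 1.77 with hypoxanthine, and rose by 0.35 ± 0.10 (adjusted p = 0.0341; lost in 9 of the 18 alternatives). Il10rb, shared with the type III receptor, rose by 0.33 ± 0.09 (adjusted p = 0.0259; lost in 7 of the 18 alternatives).

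Of the kinases, Jak2 rose and Jak1 and Tyk2 were not called. Jak2 read 9.51, 8.84 and 9.85 FPKM in glucose, 10.3, 7.64 and 8.16 in inosine and 25.3, 20.6 and 24.2 with hypoxanthine. The hypoxanthine libraries stood far above the rest, with a 2.68-fold ratio of means and a rise of 1.33 ± 0.12 (adjusted p = 0.000147). Jak1 read 40.9, 47 and 44.9 FPKM in glucose, 46.1, 38.2 and 41.9 in inosine and 42.5, 37.9 and 42.4 with hypoxanthine, with overlap of all media (-0.04 ± 0.09). Tyk2 read 10.1, 10.8 and 10.4 FPKM in glucose, 12.1, 9.17 and 11.2 in inosine and 14.2, 12.4 and 14.1 with hypoxanthine (0.31 ± 0.10, adjusted p = 0.0576). Its libraries did not overlap, and it was called in 4 of the 18 alternatives. Ifng differed by 0.26 ± 0.29 (adjusted p = 0.587).

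**Figure D5:**
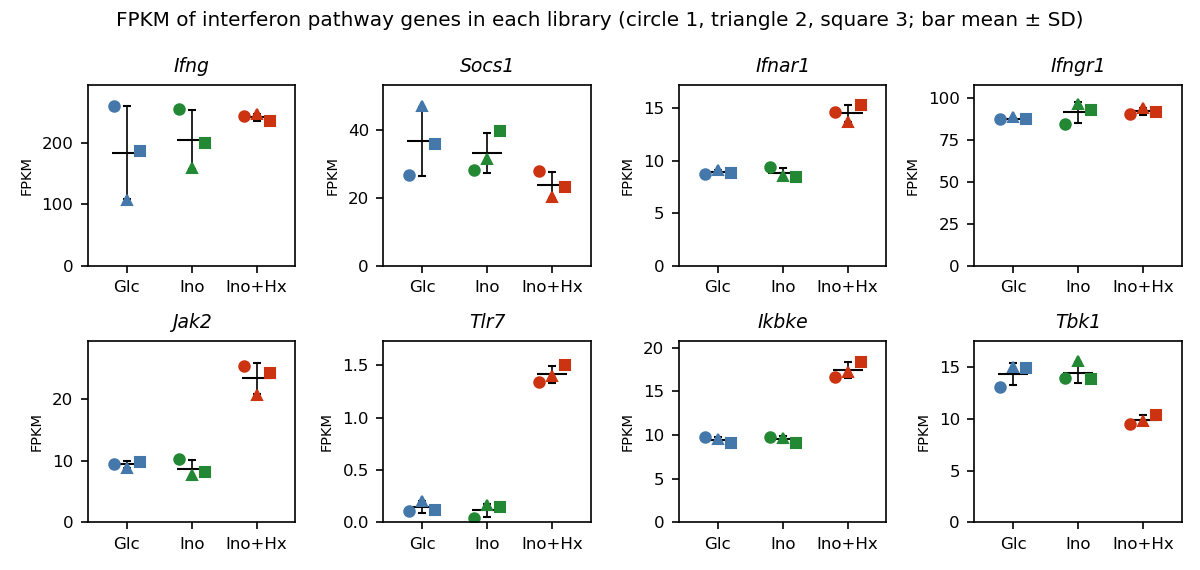
FPKM of 8 interferon pathway genes in each library of glucose (Glc), inosine (Ino) and inosine with hypoxanthine (Ino+Hx); circles, triangles and squares are libraries 1, 2 and 3, and bars give the mean ± SD. In glucose Ifng is highest in library 1 (259 FPKM) and lowest in library 2 (107 FPKM), and Ifnar1, Jak2, Ikbke and Tlr7 differ little between glucose and inosine.

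Inhibitors of the chain were mixed. Socs1, which blocks the Janus kinases and is itself induced by interferon, read 26.8, 47.3 and 36.1 FPKM in glucose, 28.4, 31.6 and 39.8 in inosine and 28, 20.4 and 23.2 with hypoxanthine, and was lower without overlap but not called (-0.46 ± 0.21, adjusted p = 0.163). Of the 8 inhibitors 3 rose, the phosphatases Ptpn6 (0.57 ± 0.07, adjusted p = 0.000598) and Ptpn1 (0.31 ± 0.08, adjusted p = 0.0228; lost in 5 of the 18 alternatives) and the repressor Irf2 (0.87 ± 0.13, adjusted p = 0.00188). Of the 13 genes that lead from nucleic acid sensing to interferon induction 3 rose and 2 fell. Tlr7, the endosomal receptor for single-stranded RNA, read 0.106, 0.208 and 0.12 FPKM in glucose, 0.045, 0.163 and 0.143 in inosine and 1.34, 1.4 and 1.5 with hypoxanthine. From near silence Tlr7 rose by 1.11 ± 0.06 (adjusted p = 1.88e-05), a 12.1-fold ratio of means, and kept its call in all alternatives run. The kinases Ikbke and Tbk1, which phosphorylate the factors that switch on interferon genes, moved apart. Ikbke read 9.74, 9.49 and 9.11 FPKM in glucose, 9.81, 9.7 and 9.03 in inosine and 16.6, 17.2 and 18.4 with hypoxanthine, and rose by 0.81 ± 0.07 (adjusted p = 9.1e-05). Tbk1 read 13.1, 15 and 14.9 FPKM in glucose, 13.9, 15.6 and 13.8 in inosine and 9.53, 9.76 and 10.4 with hypoxanthine, and fell by 0.50 ± 0.08 (adjusted p = 0.00247). Myd88, the adaptor of most Toll-like receptors, read 19.1, 20.5 and 19.2 FPKM in glucose, 20, 20 and 21.5 in inosine and 17.1, 15.2 and 16.6 with hypoxanthine, and fell by 0.32 ± 0.07 (adjusted p = 0.0109). Irf3 rose by 0.22 ± 0.06 (adjusted p = 0.0409), a call lost in 14 of the 18 alternatives.

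Of 22 further interferon-responsive genes outside the list of 54, 8 rose and 1 fell, where 11.7% of all genes were higher and 9.59% lower. Phf11b, singled out after its values were seen, rose most, by 1.77 ± 0.33 (adjusted p = 0.00568), from 6, 15.7 and 10.1 FPKM in inosine, the order of the members, to 32.6, 42.9 and 34.1. Pml, which builds nuclear bodies with Sp100, rose by 0.93 ± 0.12 (adjusted p = 0.00119), and Uba7, the enzyme that activates ISG15, by 0.84 ± 0.22 (adjusted p = 0.0267; lost in 7 of the 18 alternatives). Helz2, Adar, Tap1, Shisa5 and Ly6c2 rose as well, by 0.91, 0.66, 0.57, 0.59 and 0.85; the call of Tap1 was lost in 5 of the 18 alternatives. Apol9b fell by 0.17 ± 0.05 at a very low level (adjusted p = 0.0383), with 0.402, 0.325 and 0.254 FPKM in glucose, 0.165, 0.25 and 0.257 in inosine and 0.0984, 0.0674 and 0.0887 with hypoxanthine, and lost its call in 9 of 17 alternatives. Over the 63 pathway genes the SD of log2(FPKM + 1) had a median of 0.093 (glucose), 0.083 (inosine) and 0.072 (hypoxanthine). Over the 53 members it was 0.35, 0.31 and 0.074, and over all genes 0.055, 0.065 and 0.049. Genes under 1 FPKM are counted in all of these medians. The library order 1, 3, 2 was seen in both glucose and inosine for 15 of 63 pathway genes (23.8%). It was seen for 6.22% of all genes and 9.63% of genes of at least 1 FPKM. Against glucose 17 pathway genes rose and 5 fell (34.9% called). Of all genes 20.3% were called, 10.8% higher and 9.55% lower, with genes under 1 FPKM counted too. In the fit of only the 9947 genes at or over 1 FPKM, 1873 were higher and 1959 lower.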

How the data were processed

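The 9 libraries, 3 per medium, were read as paired ends, and all carry the same batch label. The submitters' processing notes name HISAT2, featureCounts of Subread 2.0.1, DESeq2 1.38.3 and mm10. The authors deposited FPKM values per gene and library for 20618 genes in each table, together with group-mean signal values, which behave as counts divided by size factors. The authors' deposited log2 fold changes and p-values, raw and adjusted, were used only where their table is named.

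Differences were tested with limma 3.58.1 (R 4.3.3, trended and robust variances) on log2(FPKM + 1), in 1 model of 9 libraries and all 20618 genes with a mean per medium and 6 residual degrees of freedom. P-values were adjusted by Benjamini-Hochberg over all genes and called under 0.05, and a log2 difference on this scale understates the change of low genes. Whole reads were recovered from the FPKM and the group means for 20599 genes (99.91%, tolerance 0.0005 of a read in general and 0.05 at most), and served for depth and for a voom alternative. The calculation was tested on simulated data: for the hypoxanthine comparison with inosine, run on 20618 genes, 5 of 50 changes of 1.25-fold, 30 of 50 of 1.5-fold, 47 of 50 of 2-fold and 50 of 50 of 4-fold were called. Unchanged genes gave 10 calls. The changes were set in genes averaging at least 5 FPKM, with independent noise of 1 SD per gene in all media. The members spread unequally between media and shared a library order, so these rates do not carry over to them.

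Values per library are given, in each role group, for up to 3 called members of largest difference and for the member of highest level that was not called, and for set pathway genes with the 3 of smallest adjusted p in each direction; the values of 1 pathway gene are not reported here. The members and lists were chosen with earlier results of these data known. Alternatives were another pseudocount (0.1), a filter of 1 FPKM, median-of-ratios scaling, 2 media only, the library number as a block, voom, and leaving out libraries.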

Additional observations from a re-analysis of the deposited data

How the results depend on the processing

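Between inosine and glucose no member was called in any of the 19 alternatives run. For hypoxanthine against inosine the 13 rising and 2 falling members became 23 rising with the library number as a replicate block, and 5 to 21 rising and 1 to 3 falling when 1 library was left out. Against glucose the 10 rising members became 22 with the replicate block, 17 with voom on recovered reads and 5 to 17 with 1 library left out, and the 2 falling became 2 to 3. Rising pathway genes ranged from 12 to 22 (inosine) and 12 to 19 (glucose) with 1 library left out, and falling ones from 2 to 5 and from 2 to 7.

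Leaving out the libraries of 1 number from every medium was chosen after seeing the data. Against inosine, 7 members rose without those numbered 1, and none rose or fell without those numbered 3, where 2 pathway genes rose and 1 fell. Against glucose, 3 rose and 1 fell without number 1 (pathway 9 and 3), 1 rose and 0 fell without number 3 (pathway 2 and 0), and 2 pathway genes fell without number 2. Genes called over the whole table then numbered 201 higher and 109 lower against inosine and 225 and 129 against glucose without number 3; fewer libraries remain in these fits. Without number 1 they were 1536 and 1184, and 1225 and 1060, and without hypoxanthine library 3 they were 1542 and 1215, and 1464 and 1213; without hypoxanthine library 1, 1305 were lower than in inosine. Median-of-ratios scaling gave 2254 higher and 2199 lower against inosine, from 2404 and 1978. Voom called 2591 and 2044. The response element was found in 22 promoters, from 18, when all 300 bases were searched, also chosen after seeing the data.

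Small differences changed sign against inosine. Ifngr1 (0.01) became -0.02 with median-of-ratios scaling, -0.04 without inosine library 1, -0.01 without hypoxanthine library 2 and -0.03 without number 1. Jak1 (-0.04) became 0.03, 0.02 and 0.00 without inosine library 1, hypoxanthine library 2 and number 1. Isg20 became -0.02 without inosine library 1, and Ifnar2 -0.03 without number 1. With 1 library left out, Isg20 ranged from -0.02 to 0.29, Ifngr1 from -0.04 to 0.05 and Jak1 from -0.10 to 0.03. The cause of these changes was not tested.

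The labels tie same-numbered libraries by nothing but the number, and not every pair correlated at over 0.1, so they were not treated as pairs. Over 9947 genes their deviations from the group means correlated at 0.40, 0.26 and -0.27 between glucose and inosine, 0.08, -0.20 and -0.06 between glucose and hypoxanthine and 0.41, 0.64 and 0.02 between inosine and hypoxanthine; over the 53 members these values were 0.86, 0.81 and 0.44, 0.23, 0.13 and -0.13, and 0.42, 0.54 and -0.24. With glucose and inosine alone and the block, again chosen after seeing the data, 0 members were called.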
